A study of Mus musculus with 30 samples.

Results

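Frrs1l, Lzts1, Mfap4, Trp53i11, Chrnb1, Abcd2, Dnah7a and Khdc1a are 8 mouse genes that were selected on their measured levels, because their transcripts stood higher with an Atoh1 vector than with the control vector in both of the cell lines studied. They are 8 of the 25341 transcript clusters on the array that carry a gene symbol, and each was read from the cluster annotated with that symbol alone. The lines were iMOP cells, an otic progenitor line that is 1 clone derived from SOX2-positive cells of the embryonic cochlea by transient c-Myc and kept in bFGF, and mouse embryonic stem cells (mESCs) of the line ES-D3, kept with LIF on growth-arrested mouse fibroblasts. Each line was measured in 5 groups of 3 arrays: p183AT (Atoh1, miR-183, miR-96, miR-182 and red fluorescent protein, RFP), pAT (Atoh1 and RFP), p183T (the 3 miRNAs and RFP), pT (RFP alone) and cells that were not transfected. All vectors used the ubiquitous EF-1 alpha promoter. In p183AT and p183T the miRNAs sat in a human beta globin intron, and in p183AT and pAT Myc-tagged Atoh1 was joined to RFP through a 2A peptide. RFP-positive cells were collected by sorting at 48 h after transfection, iMOP cells into lysis buffer and mESCs into medium, and the lines were transfected with different reagents. Levels are RMA-normalized log2 intensities, so that a difference of 1 is a 2-fold change.

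The choice itself used p183AT and pAT against pT in both lines, so those values are a description and carry no test. In pAT against pT, log2 differences in iMOP cells were 0.63 for Frrs1l, 0.60 for Lzts1, 0.84 for Mfap4, 0.79 for Trp53i11, 0.08 for Chrnb1, 0.52 for Abcd2, 0.62 for Dnah7a and 0.49 for Khdc1a. In mESCs the same differences were 1.29 for Frrs1l, 1.11 for Lzts1, 0.61 for Mfap4, 1.67 for Trp53i11, 0.68 for Chrnb1, 0.56 for Abcd2, 0.91 for Dnah7a and 0.09 for Khdc1a. At a fold change of at least 1.5 with an unadjusted p under 0.05 in both lines, Frrs1l, Lzts1 and Mfap4 qualified with both Atoh1 vectors, Trp53i11 and Dnah7a with pAT only, and Chrnb1, Abcd2 and Khdc1a with p183AT only. Just inside that fold lay Dnah7a in mESCs (0.59) and Khdc1a in iMOP cells (0.60) with p183AT, Dnah7a at an unadjusted p above 0.05, and Lzts1 in iMOP cells with pAT (0.60). Just outside lay Abcd2 in mESCs with pAT (0.56). The counts past an adjusted p of 0.05 over all tested clusters (limma) follow for completeness, and nothing is read from them, since these arrays chose the genes. In pAT against pT they were 0 of the 8 genes in iMOP cells, where 0.0197% of clusters passed upward, and 4 of 8 in mESCs, where 0.517% did. For p183AT against pT the counts were 1 of 8 in iMOP cells (0.122% of clusters) and 4 of 8 in mESCs (0.738%).

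p183AT against p183T uses none of the pT arrays and asks how the genes differ with Atoh1 where both groups carry the miRNAs. For Trp53i11 and Dnah7a it also uses none of the arrays by which they qualified, whereas for the other 6 genes the p183AT arrays had served in the choice.

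Atoh1 is a basic helix-loop-helix transcription factor that is required for hair cells to form in the cochlea and acts in several neuronal lineages, and proteins of its class bind short DNA motifs called E-boxes. miR-183, miR-96 and miR-182 are sensory-organ miRNAs transcribed as a single cluster and act by lowering transcripts that pair with their seed. The 8 genes belong to unrelated pathways, which include synaptic and neuromuscular receptors, the extracellular matrix, the p53 response, peroxisomal transport, motile cilia and RNA binding.

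Promoters of 300 bases (250 before to 50 after the annotated start; RefSeq, GRCm38.p6) were available for 4 of the 8 genes, namely Frrs1l, Trp53i11, Chrnb1 and Dnah7a. Those of the 3 genes other than the weakly measured Dnah7a are shown because their transcripts moved together with Atoh1 in mESCs, and capitals mark each match to the E-box CANNTG, which reads the same on both strands. The Chrnb1 promoter (chr11:69795888-69796187, minus strand) held 3 matches, CATTTG at -119, CAGTTG at -96 and CAGGTG at -29 relative to the start. The Frrs1l promoter (chr4:56990342-56990641, minus strand) held 1 match, CAGGTG at -201. The Trp53i11 promoter (chr2:93187298-93187597, plus strand) held none.
Chrnb1: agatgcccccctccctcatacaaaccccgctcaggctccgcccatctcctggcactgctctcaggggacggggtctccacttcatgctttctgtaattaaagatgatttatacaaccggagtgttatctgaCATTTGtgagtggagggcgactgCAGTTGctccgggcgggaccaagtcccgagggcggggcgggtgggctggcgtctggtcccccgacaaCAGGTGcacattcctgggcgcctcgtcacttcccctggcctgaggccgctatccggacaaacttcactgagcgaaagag
Frrs1l: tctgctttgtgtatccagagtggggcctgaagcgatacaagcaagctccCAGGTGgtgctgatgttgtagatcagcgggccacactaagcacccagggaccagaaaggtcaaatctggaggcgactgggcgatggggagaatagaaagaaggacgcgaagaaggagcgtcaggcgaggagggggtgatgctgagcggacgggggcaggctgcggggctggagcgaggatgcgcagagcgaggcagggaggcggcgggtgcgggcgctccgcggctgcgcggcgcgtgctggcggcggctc
Trp53i11: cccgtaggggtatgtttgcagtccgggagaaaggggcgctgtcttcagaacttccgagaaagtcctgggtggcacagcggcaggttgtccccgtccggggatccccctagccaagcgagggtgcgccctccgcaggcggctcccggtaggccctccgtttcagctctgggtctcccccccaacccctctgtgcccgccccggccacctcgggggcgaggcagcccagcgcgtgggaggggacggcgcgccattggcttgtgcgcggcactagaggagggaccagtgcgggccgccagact
Of all 32851 RefSeq promoters of this length, 72.3% held CANNTG, so a match does not set these genes apart. The form CAGCTG, present in 16.3% of the promoters and counted among the CANNTG matches, was in none of the 4. It was found in Cdc25b and Dll3, the only genes outside the 8 whose promoters were looked up by name. Their transcripts were also higher with Atoh1 in both lines. Dll1 and Irgm1, which the study likewise named as higher in both, were not looked up, so nothing is read from this pair. The windows of 30 bases of Cdc25b and Dll3, within chr2:131186698-131186997 (plus strand) and chr7:28301736-28302035 (minus strand), follow.
Cdc25b: ggaggtggaggtggCAGCTGcccagctcgg
Dll3: tccggcatccagCAGCTGcgactcctgaga
The 3 mature miRNAs that separate p183AT from pAT (RefSeq, chromosome 6, minus strand; chr6:30165962-30165986, chr6:30169711-30169732 and chr6:30169506-30169528) are shown with the seed, bases 2 to 8, in capitals, since the seed sets which transcripts pair with them.
miR-182-5p: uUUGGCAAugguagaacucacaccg
miR-183-5p: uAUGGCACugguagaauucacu
miR-96-5p: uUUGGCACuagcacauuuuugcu

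The vectors were visible on the arrays. Atoh1 measured 7.16, 6.94 and 6.44 in iMOP p183AT cells, against 5.11, 5.46 and 5.61 in p183T cells, and 6.27, 6.08 and 6.10 in mESC p183AT cells, against 4.90, 4.37 and 4.69 in p183T cells. The differences were 1.45 in iMOP cells (limma, adjusted p = 0.00177) and 1.49 in mESCs (adjusted p = 0.000147), close to one another in size. The hairpin clusters of Mir183, Mir96 and Mir182 lay at 5.52 to 9.83 in the groups with the miRNAs, and no array without them was above 4.38. In iMOP cells each hairpin was lower in p183AT than in p183T arrays, without overlap. The means were 6.24 against 6.98 for Mir183, 6.70 against 7.40 for Mir96 and 7.02 against 8.07 for Mir182. In mESCs they were 6.36 against 7.14, 8.73 against 8.97 and 8.62 against 8.99, with overlap. The part of this difference in p183AT against p183T was not tested. Of 10 pluripotency markers, 7 lay under log2 5 in transfected iMOP cells and 1 in mESCs, and of 9 otic progenitor markers 2 did so in transfected iMOP cells and 4 in mESCs. Replicate arrays correlated at 0.965 to 0.987. The groups are biological replicates per the labels, so that a p-value here reflects how much such samples vary. limma estimated that spread from all arrays of a fit, drawing also on the other clusters, and not from the 3 arrays of a group alone. Cells were measured in bulk, so fewer cells carrying a transcript and less of it per cell cannot be told apart.

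In mESCs, 5 of the 8 genes were higher in p183AT than in p183T cells, by 1.01 to 1.96 on the log2 scale, where 0.856% of all tested clusters were called higher. In iMOP cells Chrnb1 alone of the 8 passed (0.0829% of clusters), at 1.10. Chrnb1 was therefore the 1 member called in both lines, a call that 5 clusters of all tested received (0.0197%), the others being Cdc25b, Serping1, Atoh1 and Dll3. The median difference over the 8 genes was 0.73 in iMOP cells and 1.04 in mESCs, against -0.01 and 0.01 over all clusters. Every p183AT array exceeded every p183T array for 5 of 8 genes in iMOP cells (4.75% of clusters) and for 6 of 8 in mESCs (8.5%). Frrs1l, Lzts1, Mfap4, Chrnb1 and Abcd2 did so in both lines, as 0.576% of clusters did. Dnah7a and Khdc1a did so in neither line.

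**Figure D1:**
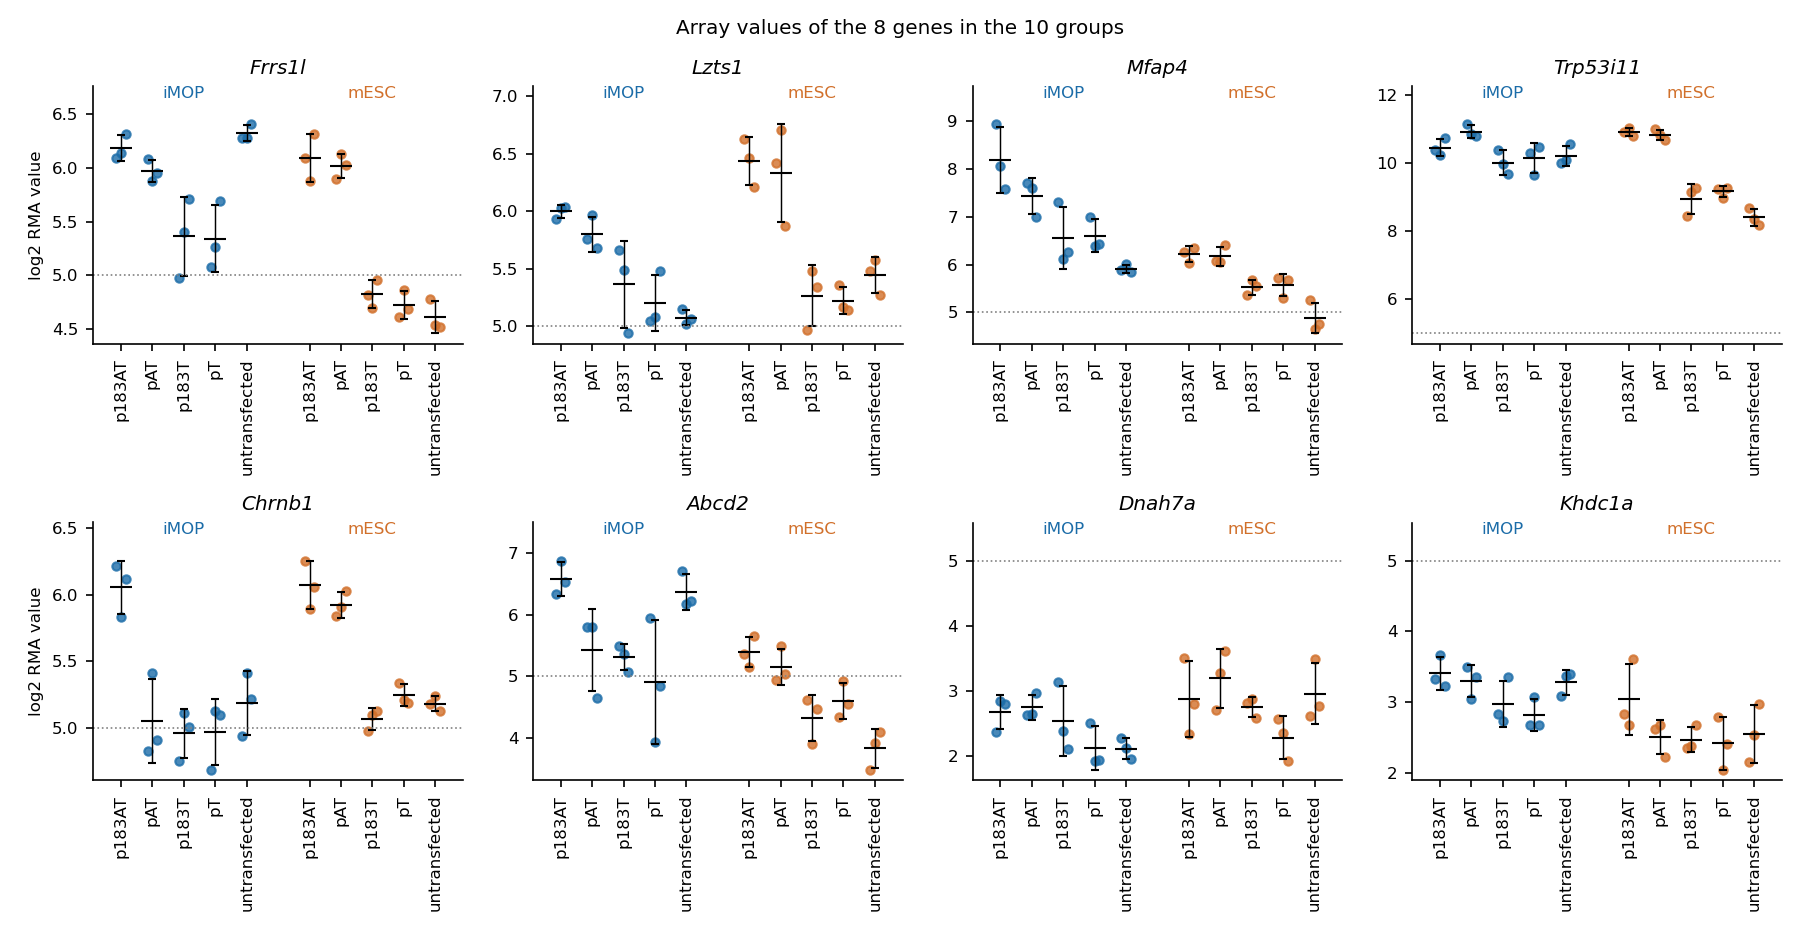
Level (RMA log2 intensity, y axis) of the 8 genes in the 10 groups, iMOP cells left and mESCs right in each panel. Points are the 3 arrays of a group, short bars the mean with error bars of 1 SD, and the dotted line marks log2 5; Dnah7a and Khdc1a have every group mean below it, while Trp53i11 lies near 11 in mESCs with p183AT and near 9 with p183T.

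Chrnb1, which encodes the beta subunit of the muscle nicotinic acetylcholine receptor, had a difference of similar size in both lines. In iMOP cells it measured 6.21, 5.83 and 6.12 with p183AT, against 4.75, 5.11 and 5.01 with p183T. In mESCs it measured 6.26, 5.90 and 6.06 with p183AT, against 4.97, 5.10 and 5.13 with p183T. Every p183AT array of either line was thus above every p183T array of both lines. The iMOP p183T mean of 4.96 was below log2 5, where array signal is weak. The difference was 1.10 ± 0.18 (SE) in iMOP cells (limma, adjusted p = 0.0215) and 1.01 ± 0.11 in mESCs (adjusted p = 0.000164). The lines differed by 0.09, with a 95% interval of -0.36 to 0.54 (adjusted p = 0.958). The iMOP call was lost when p183AT replicate 1 or 3 or any of the 3 p183T arrays was left out, with adjusted p-values of 0.0639 to 0.126 and differences of 0.99 to 1.18. Of 15 skeletal muscle markers 0 passed the test in either line, with 1 in iMOP cells and 2 in mESCs under an unadjusted p of 0.05. Their summed linear level was 533 to 558 in iMOP p183AT cells, against 501 to 582 in p183T cells, and 541 to 623 in mESC p183AT cells, against 560 to 660 in p183T cells. Actc1, a sarcomeric actin on that list, differed by 0.95 in iMOP cells (adjusted p = 0.161).

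Frrs1l encodes a protein needed for the assembly of AMPA-type glutamate receptors. In mESCs it measured 6.09, 5.87 and 6.31 with p183AT, against 4.82, 4.70 and 4.96 with p183T, and the groups were well apart. The difference was 1.27 ± 0.13 (limma, adjusted p = 0.000133), with the p183T mean of 4.83 below log2 5. In iMOP cells it measured 6.09, 6.14 and 6.31 with p183AT, against 4.98, 5.40 and 5.71 with p183T. These groups did not overlap either, but the p183T arrays were spread more widely, and the difference of 0.82 ± 0.18 did not pass (adjusted p = 0.138). In 1 fit of all 30 arrays it passed (adjusted p = 0.0155). The p183AT arrays of the lines overlapped in level, while the p183T arrays of iMOP cells all lay above those of mESCs.

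Lzts1, a leucine zipper protein found at postsynaptic sites of neurons, measured 6.63, 6.46 and 6.21 in mESCs with p183AT, against 4.97, 5.48 and 5.34 with p183T. The difference was 1.17 ± 0.19 (limma, adjusted p = 0.00463). In iMOP cells it measured 5.93, 6.02 and 6.04 with p183AT, against 5.66, 5.49 and 4.94 with p183T. The groups did not overlap, though p183T replicate 1 lay close to the p183AT arrays, and the difference of 0.63 ± 0.17 did not pass (adjusted p = 0.424).

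Mfap4 encodes a microfibril-associated protein of elastic fibres in the extracellular matrix. In iMOP cells it measured 8.94, 8.06 and 7.58 with p183AT, against 7.30, 6.11 and 6.27 with p183T. The groups did not overlap, but each spread by more than 1 log2 unit. The difference of 1.63 ± 0.31 was the largest of the 8 genes in this line and just missed the threshold (limma, adjusted p = 0.0585). It passed without p183AT replicate 3 (adjusted p = 0.0325) or without p183T replicate 1 (adjusted p = 0.0125). In mESCs Mfap4 measured 6.27, 6.03 and 6.35 with p183AT, against 5.37, 5.68 and 5.55 with p183T, a difference of 0.68 ± 0.17 (adjusted p = 0.0733). Fibroblast markers were followed because mESCs are grown on fibroblasts, though the sort for RFP takes out cells without vector. The summed level of 20 fibroblast markers was 2933 to 3043 in mESC p183AT cells, against 2739 to 3091 in p183T cells, and 861 to 1008 in iMOP p183AT cells, against 826 to 872 in p183T cells. The sums are led by the brightest genes. The mean log2 level of the same markers was 5.29 to 5.33 in mESC p183AT cells, against 5.07 to 5.19 in p183T cells, without overlap, and 4.82 to 4.92 in iMOP p183AT cells, against 4.82 to 4.96 in p183T cells. Of these markers Pdgfra was called in mESCs, at 0.93 (adjusted p = 0.00436), while Tagln differed there by 1.27 (adjusted p = 0.191) and Acta2 by 0.59 (adjusted p = 0.271). Other markers were lower, down to -0.27, and the median difference of the 20 in mESCs was 0.01, as over all clusters (0.01). The part of fibroblasts in the Mfap4 level was not tested.

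Trp53i11, named for its induction by p53, had the widest gap between the lines. In mESCs it measured 10.92, 11.03 and 10.79 with p183AT, against 8.46, 9.14 and 9.27 with p183T, with every p183AT array far above every p183T array. The difference of 1.96 ± 0.19 was the largest of the 8 genes in mESCs (limma, adjusted p = 4.93e-05). In iMOP cells it measured 10.39, 10.25 and 10.73 with p183AT, against 10.39, 9.98 and 9.69 with p183T, so that the groups overlapped. There the difference was 0.44 ± 0.22 (95% interval -0.03 to 0.90, adjusted p = 0.925). Trp53i11 was the 1 gene of the 8 for which the size of the difference was itself called different between the lines, at -1.52 ± 0.30 (95% interval -2.14 to -0.90, adjusted p = 0.0115), where 0.335% of all clusters were called. Without p183T replicate 1 of the iMOP cells the value was -1.34 (adjusted p = 0.0530), and without p183T replicate 1 of the mESCs -1.27 (adjusted p = 0.0644).

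Abcd2 encodes a peroxisomal transporter of very long chain fatty acids. In mESCs it measured 5.37, 5.16 and 5.65 with p183AT, against 4.61, 3.90 and 4.47 with p183T, and the difference was 1.07 ± 0.22 (limma, adjusted p = 0.0257). The groups were apart, with p183T below log2 5, where array signal is weak. In iMOP cells it measured 6.33, 6.88 and 6.52 with p183AT, against 5.49, 5.37 and 5.08 with p183T. Here too the groups did not overlap, and the difference was 1.27 ± 0.37, which did not pass (adjusted p = 0.525). The mESC call was lost without p183AT replicate 1 (adjusted p = 0.0823) or 3 (0.109), or without p183T replicate 2 (0.122) or 3 (0.0571). In 1 fit of all 30 arrays it was lost as well (adjusted p = 0.125).

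Dnah7a, an inner-arm axonemal dynein heavy chain of motile cilia, and Khdc1a, a KH-domain protein known from mouse oocytes, stood below log2 5 in all 10 groups. Dnah7a measured 2.37, 2.85 and 2.80 in iMOP cells with p183AT, against 3.14, 2.38 and 2.11 with p183T. In mESCs it measured 3.50, 2.34 and 2.79 with p183AT, against 2.82, 2.87 and 2.59 with p183T. Its groups overlapped in both lines, with differences of 0.13 (95% interval -0.34 to 0.60) and 0.12 (-0.51 to 0.75). Khdc1a measured 3.32, 3.66 and 3.23 in iMOP cells with p183AT, against 2.83, 2.74 and 3.35 with p183T. In mESCs it measured 2.83, 2.67 and 3.61 with p183AT, against 2.34, 2.38 and 2.67 with p183T. Its p183AT and p183T arrays met or overlapped in both lines, and the differences of 0.43 (limma, adjusted p = 0.866) and 0.57 (adjusted p = 0.394) did not pass. A further cluster annotated jointly with Dnah7a, Dnah7b and Dnah7c averaged 3.43 in iMOP cells with p183AT, against 3.22 with p183T, and 4.43 in mESCs with p183AT, against 4.56 with p183T. The description of these genes as raised by Atoh1 in both lines therefore rests, for Dnah7a and Khdc1a, on the arrays that chose them. For Trp53i11 in iMOP cells it rests on the pAT and pT arrays that chose the gene, since p183AT and p183T overlapped there. Frrs1l, Lzts1, Mfap4, Chrnb1 and Abcd2 had p183AT above p183T arrays in both lines, but those p183AT arrays had served in the choice. Among these genes Chrnb1 alone was called in both lines. With pAT, however, Chrnb1 averaged 5.05 in iMOP cells, against 4.97 with pT, and the arrays overlapped. Abcd2 overlapped there as well, at 5.42 with pAT and 4.91 with pT.

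**Figure D2:**
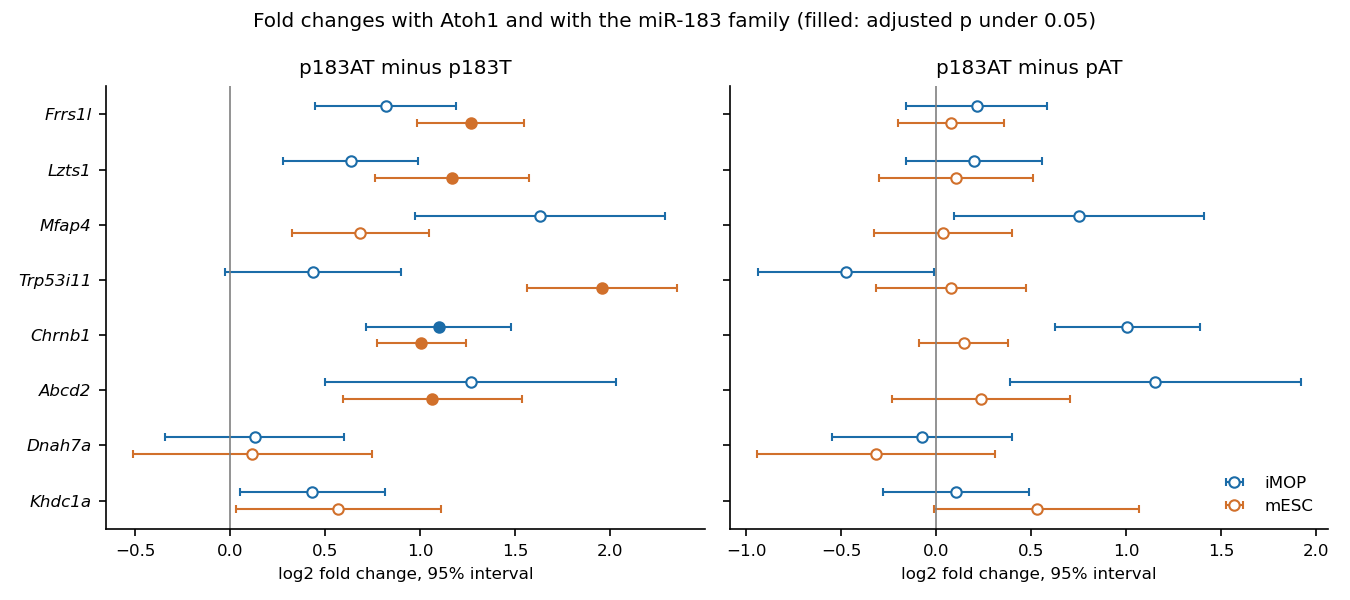
Log2 difference (x axis) of the 8 genes in p183AT minus p183T and in p183AT minus pAT, with 95% intervals from limma, iMOP cells (blue) above mESCs (orange). Filled points passed an adjusted p of 0.05; 5 mESC points and 1 iMOP point, Chrnb1, are filled in p183AT minus p183T and none in p183AT minus pAT.

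Adding the miRNAs to Atoh1, p183AT against pAT, gave no call among the 8 genes in either line with limma (0.0118% of clusters were called, the 3 miRNA hairpins). At an unadjusted p under 0.05, 4 of the 8 genes differed in iMOP cells (3.99% of clusters) and 0 in mESCs (4.87%). With the 1.5-fold test of the study's methods, before adjustment, 2 did in iMOP cells and 0 in mESCs, and after adjustment 0 did in both. Chrnb1 in iMOP cells measured 6.21, 5.83 and 6.12 with p183AT, against 4.83, 5.41 and 4.91 with pAT. No array of the groups overlapped, and the difference was 1.01 (95% interval 0.62 to 1.39, adjusted p = 0.145). It passed without pAT replicate 2 (1.19, adjusted p = 0.0447) and in 1 fit of all 30 arrays (adjusted p = 0.00274). In mESCs Chrnb1 measured 6.26, 5.90 and 6.06 with p183AT, against 5.84, 5.91 and 6.03 with pAT, with a difference of 0.15 (-0.09 to 0.38). Abcd2 in iMOP cells measured 6.33, 6.88 and 6.52 with p183AT, against 5.81, 5.80 and 4.66 with pAT, again without overlap, and the difference was 1.15 (0.39 to 1.92, not called). Trp53i11 ran the other way in iMOP cells. It measured 10.39, 10.25 and 10.73 with p183AT, against 11.15, 10.85 and 10.79 with pAT, and the difference was -0.47 (-0.94 to -0.01, not called). Every p183AT array exceeded every pAT array for 3 of 8 genes in iMOP cells (Frrs1l, Chrnb1 and Abcd2, with 3.64% of clusters) and for 0 of 8 in mESCs (3.67%). Both groups had served in the choice. Chrnb1 and Abcd2 qualified through p183AT and Trp53i11 through pAT, which favours the direction of their iMOP differences here. The counts and p-values of this comparison are therefore no independent test.

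The miRNAs without Atoh1, p183T against pT, moved none of the 8 genes past the threshold in either line with limma (0.0118% of clusters were called) or with the test of the study's methods. At an unadjusted p under 0.05 the count was also 0, where 3.87% of clusters in iMOP cells and 2.33% in mESCs were below it. Differences ran between -0.12 and 0.42 in iMOP cells and between -0.27 and 0.48 in mESCs, and in both lines the weakly measured Dnah7a was at the upper end. The pT arrays had served in the choice, which favours low pT levels and so higher differences here. The counts and differences of this comparison, with the place of Dnah7a among them, are therefore no independent test.

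The lines started from different levels of these genes. In untransfected cells, 7 of the 8 genes were called between the lines, among 57.5% of all clusters. Abcd2 measured 6.71, 6.18 and 6.23 in iMOP cells, against 3.49, 3.92 and 4.10 in mESCs, a difference of 2.53 (limma, adjusted p = 1.06e-06). Trp53i11 measured 10.02, 10.10 and 10.56 in iMOP cells, against 8.68, 8.37 and 8.18 in mESCs, a difference of 1.82 (adjusted p = 8.11e-06). Frrs1l measured 6.27, 6.28 and 6.40 in iMOP cells, against 4.79, 4.54 and 4.52 in mESCs, a difference of 1.70 (adjusted p = 1.02e-06). These 3 genes were thus already high in iMOP cells without any vector. Mfap4 was higher in iMOP cells by 1.03 (adjusted p = 0.00031) and the dim Khdc1a by 0.73 (adjusted p = 0.00811), while the dim Dnah7a differed by -0.84 (adjusted p = 0.00554). Lzts1 differed by -0.37 (adjusted p = 0.0286). Chrnb1 measured 4.94, 5.41 and 5.21 in iMOP cells, against 5.18, 5.24 and 5.13 in mESCs, so that its starting levels overlapped, with a difference of 0.01 (95% interval -0.31 to 0.32). The medians of the arrays did not overlap between the lines, at 4.37 to 4.51 in iMOP cells and 4.57 to 4.69 in mESCs. After quantile normalization over all 30 arrays, Lzts1 differed by -0.09 (adjusted p = 0.556) and Chrnb1 by 0.27 (adjusted p = 0.139). The Lzts1 call was also lost without replicate 2 (adjusted p = 0.0900) or 3 (0.0658) of the iMOP cells, without replicate 1 (0.0605) or 2 (0.104) of the mESCs, and in 1 fit of all 30 arrays (0.0886).

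Transfected cells without Atoh1 differed from untransfected cells for some of the genes, Abcd2 in opposite directions in the lines and Mfap4 upward in both. The steps of transfection, sorting and vector cannot be told apart here. The pT arrays of both lines had served in the choice, which favours low pT levels. Comparisons of pT with untransfected cells are therefore no independent test, whereas the p183T and untransfected arrays had no part in the choice. In iMOP cells, Frrs1l and Abcd2 were lower in p183T than in untransfected cells, among 22.6% of clusters called lower. Frrs1l measured 4.98, 5.40 and 5.71 in p183T cells, against 6.27, 6.28 and 6.40 in untransfected cells, a difference of -0.95 (limma, adjusted p = 0.000284). Abcd2 measured 5.49, 5.37 and 5.08 in p183T cells, against 6.71, 6.18 and 6.23 in untransfected cells, a difference of -1.06 (adjusted p = 0.0257). The Abcd2 call was lost without p183T replicate 2 (adjusted p = 0.0554) or 3 (0.0859), without untransfected replicate 1 (0.104), or after quantile normalization of all arrays (0.0677). Mfap4 measured 7.30, 6.11 and 6.27 in p183T cells, against 5.89, 6.01 and 5.84 in untransfected cells. Every p183T array was higher, and the difference of 0.65 did not pass (adjusted p = 0.105) but did after quantile normalization of all arrays (0.88, adjusted p = 0.0389). Without p183T replicate 3, Lzts1 (0.50, adjusted p = 0.0199) and Dnah7a (0.65, adjusted p = 0.0372) were called higher and Khdc1a (-0.50, adjusted p = 0.0434) lower as well. The pT cells gave -0.97 for Frrs1l (adjusted p = 0.000231), -1.46 for Abcd2 (0.00335) and -0.47 for Khdc1a (0.0465), among 21.9% of clusters called lower. For Khdc1a the adjusted p was 0.122 and 0.135 without pT replicates 1 and 3, and 0.129 and 0.132 without untransfected replicates 2 and 3.

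In mESCs, 1 of the 8 genes was higher in p183T than in untransfected cells, among 5.94% of clusters. This was Mfap4, which measured 5.37, 5.68 and 5.55 in p183T cells, against 5.25, 4.65 and 4.76 in untransfected cells, a difference of 0.65 (limma, adjusted p = 0.0212). The call was lost without p183T replicate 2 (adjusted p = 0.0874) or 3 (0.0648), or without untransfected replicate 2 (0.0958) or 3 (0.0832). Trp53i11 measured 8.46, 9.14 and 9.27 in p183T cells, against 8.68, 8.37 and 8.18 in untransfected cells, and its difference of 0.55 missed the threshold (adjusted p = 0.0747). It passed without p183T replicate 1 (0.79, adjusted p = 0.00482) or untransfected replicate 1 (0.68, adjusted p = 0.0476). In pT cells Trp53i11 (0.76, adjusted p = 0.0121), Mfap4 (0.68, adjusted p = 0.0132) and Abcd2 (0.76, adjusted p = 0.0316) were higher than in untransfected cells, among 7.07% of clusters. Each of these calls was lost on leaving out some single arrays. For Trp53i11 these were pT replicate 1 (0.0523) and untransfected replicate 3 (0.0624). For Mfap4 they were pT replicates 1 (0.0668) and 3 (0.0544) and untransfected replicates 2 (0.0645) and 3 (0.0581), and for Abcd2 pT replicates 2 (0.137) and 3 (0.0663) and untransfected replicates 1 (0.136) and 2 (0.0580).

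Set beside the untransfected level, the p183AT cells of the lines stood in different places. In iMOP cells the mean with p183AT was 2.28 above the untransfected mean for Mfap4, 0.92 for Lzts1 and 0.87 for Chrnb1, but 0.23 for Trp53i11, 0.20 for Abcd2 and -0.14 for Frrs1l. For Frrs1l, Trp53i11 and Abcd2 the iMOP p183AT arrays overlapped the untransfected ones. In mESCs the p183AT mean was above the untransfected mean for each of the 6 genes other than Dnah7a and Khdc1a, by 2.50 for Trp53i11, 1.56 for Abcd2, 1.48 for Frrs1l, 1.33 for Mfap4, 0.99 for Lzts1 and 0.89 for Chrnb1. The untransfected mESC means of Frrs1l (4.61), Mfap4 (4.89) and Abcd2 (3.84) were themselves under log2 5.

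**Figure D3:**
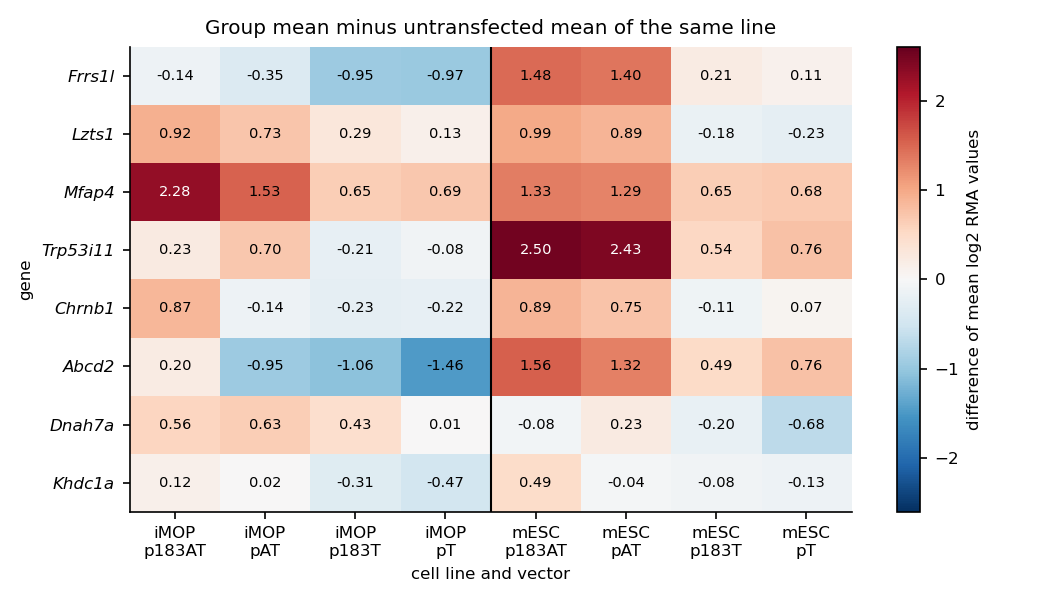
Heat map of the group mean minus the untransfected mean of the same line (log2, colour and printed value) for the 8 genes in p183AT, pAT, p183T and pT cells, iMOP cells left of mESCs. In iMOP cells Frrs1l and Abcd2 are negative with p183T and pT and near 0 with p183AT, and in mESCs Trp53i11 reaches 2.50 with p183AT.

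Genes of the same pathways were followed in 8 lists with 178 measured genes. In p183AT against p183T, 1 listed gene was higher in iMOP cells, Cdkn1a, the p53-induced inhibitor of cyclin-dependent kinases, at 1.19 (limma, adjusted p = 0.0353), and 0 were lower. In mESCs 1 was higher, Slc27a2, a very long chain acyl-CoA synthetase, at 0.69 (adjusted p = 0.0168), and 1 was lower, Ooep, an oocyte-expressed KH-domain gene, at -0.72 (adjusted p = 0.00346). The list medians lay between -0.07 and 0.07 in iMOP cells and between -0.04 and 0.09 in mESCs, near those of all clusters. The 26 genes of AMPA receptors, the 15 postsynaptic scaffolds, the 20 elastic fibre genes, the 21 acetylcholine receptor genes and the 32 cilium genes held 0 calls in either line, with 0 to 3 genes of each list under an unadjusted p of 0.05. In pAT against pT, 0 listed genes were called in iMOP cells, with 0 to 3 of each list under an unadjusted p of 0.05, and 2 in mESCs, both lower, Zp3 at -0.65 (adjusted p = 0.0276) and Ooep at -0.62 (adjusted p = 0.0125).

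Neuronal markers, and pluripotency markers in mESCs, also differed between p183AT and p183T cells. The summed linear level of 16 neuronal markers was 2189 to 2316 in iMOP p183AT cells, against 1592 to 1816 in p183T cells. Of these, Nhlh1, a neuronal transcription factor that the study also lists as enriched in hair cells, differed by 1.42 (limma, adjusted p = 0.0169). In mESCs the sums were 1809 to 1927 with p183AT, against 1869 to 2060 with p183T, with Gap43, a growth cone protein, at 0.63 (adjusted p = 0.0459). The mean log2 level of the neuronal markers was 5.75 to 5.87 in iMOP p183AT cells, against 5.48 to 5.62 in p183T cells, and 5.51 to 5.57 in mESC p183AT cells, against 5.39 to 5.45 in p183T cells, higher without overlap in both lines although the mESC sums overlapped. Of the 16, only 1 was called higher in each line (0.0829% of clusters in iMOP cells, 0.856% in mESCs). Some markers were lower, with differences of -0.21 to 1.42 in iMOP cells (median 0.15) and -0.18 to 0.63 in mESCs (median 0.10). Of 10 pluripotency markers in mESCs the sums were 5024 to 5311 with p183AT, against 6511 to 6878 with p183T, and Zfp42 (-0.54, adjusted p = 0.0478) and Tfcp2l1 (-0.46, adjusted p = 0.0433) were called lower, among 0.3% of clusters. The 10 differed by -0.75 to 0.11 (median -0.34). Of 17 hair cell markers and 9 otic progenitor markers 0 were called in either line. In iMOP cells 4 of the hair cell markers lay under an unadjusted p of 0.05 (limma), and the 17 differed by -0.94 to 1.02. The part of these cell states in the levels of the 8 genes was not tested.

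Over the 10 group means, with the mean of each line removed, the 8 genes correlated with one another at 0.16 to 0.87 (median 0.67), a description over groups that share their chosen arrays. The clusters most like Chrnb1 were Serping1 (r = 0.91), Actc1 (0.91) and Ncstn (0.88). Those most like Lzts1 were Cdc25b (0.97), Dll3 (0.97) and Dgki (0.94), and those most like Frrs1l were Mfhas1 (0.96), Dmd (0.95) and Rbm24 (0.95). Rbm24 (0.94) also ranked high for Abcd2, after Fgd6 (0.96) and Chn1 (0.95). For Mfap4 they were Hsd11b2 (0.98), Fbxl16 (0.98) and Rasd2 (0.95), and for Trp53i11 Fgfbp1 (0.98), Fabp5 (0.98) and Dok5 (0.97). For the dim Dnah7a they were Kcnq3 (0.94), AW209491 (0.92) and Sstr3 (0.92), and for Khdc1a Dcc (0.86), Snap91 (0.86) and Amer2 (0.85). The mean of the 8 genes was closest to Cdc25b (0.97), Ncstn (0.96) and Cd63 (0.96). These were the 3 highest of 14164 to 14170 clusters searched for each profile, and r leaves out the size of a change. Over the 10 group means, with line means removed, the SD was 0.11 for Mfhas1, against 0.58 for Frrs1l. It was 0.09 for Chn1, against 0.64 for Abcd2, but 0.72 for Cdc25b, against 0.48 for Lzts1. Cdc25b, a cell cycle phosphatase, differed between p183AT and p183T by 1.05 in iMOP cells (limma, adjusted p = 0.00757) and 1.71 in mESCs (adjusted p = 5.11e-07). Dll3, a Notch ligand, differed by 1.40 in iMOP cells (adjusted p = 0.0215) and 2.01 in mESCs (adjusted p = 3.34e-07). Both, with Dll1 and Irgm1, were named by the study on these samples, so their array values are not independent evidence. By qRT-PCR on separate RNA samples, the study reported higher Dll3 in both lines and higher Dll1 in mESCs than in control cells. It also reported higher Lzts1, Mfap4 and Chrnb1 in iMOP cells with p183AT. Those measurements are not among the arrays used here. Dll1 differed by 0.41 in iMOP cells (adjusted p = 0.926) and 0.92 in mESCs (adjusted p = 0.0322), and Irgm1 by -0.01 and 0.37 without a call.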

How the data were processed

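RNA of 30 samples (10 groups of 3) was labelled by the WT PLUS method for Affymetrix Mouse Gene 2.0 ST arrays. The authors deposited RMA log2 values, made with Affymetrix Expression Console 1.4.1.46 per the submitters' processing notes, and the set of arrays that RMA took together is not stated in those sources. RMA compresses differences of weak probes, so changes near log2 5 and below are understated.

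Of 41345 clusters, the 25341 that carry a symbol in the platform annotation were tested, and 23521 of these have 1 symbol. Probes of different genes were not set against one another in level. limma 3.58.1 in R 4.3.3 was fitted to the 15 arrays of each line, to all 30 arrays for the difference between lines, and to the 6 untransfected arrays for the lines as such, with Benjamini-Hochberg adjustment over the 25341 clusters and a threshold of 0.05. Scripts were tested on simulated data. Dim means a group mean under log2 5. Named genes were the 8 members, the vectors' genes, the 3 clusters most correlated with each member, listed genes that passed (at most 4 a list), marker genes that passed, and 4 other genes named by the study; Actc1, Tagln and Acta2, named among the markers, were singled out after their values were seen. Members and lists were chosen with earlier results of these data known. Same-numbered replicates correlated at -0.20 to 0.32. All 3 pairs exceeded 0.1 for p183AT with p183T in mESCs and for p183T with pT in iMOP cells, where the replicate block changed no call among the 8 genes, and for no other pair of groups compared. Alternatives were another set of arrays in the fit, the replicate number as a block, a filter on dim clusters, quantile normalization, a variance trend, 1 cluster a symbol, the methods' test, and leaving out each array. Columns without a sample numbered 0.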

Additional observations from a re-analysis of the deposited data

Results flagged for a closer look

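The difference of Trp53i11 between p183AT and p183T cells was itself different between the lines, at -1.52 ± 0.30 (iMOP minus mESC, limma, adjusted p = 0.0115). The untransfected levels differed as well, at 10.02, 10.10 and 10.56 in iMOP cells, against 8.68, 8.37 and 8.18 in mESCs, and the part of this starting level in the difference was not tested.

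Abcd2 moved in opposite directions with the control vector, with each pT array on 1 side of each untransfected array in both lines. In iMOP cells pT minus untransfected was -1.46, from 5.94, 3.93 and 4.84 in pT cells, against 6.71, 6.18 and 6.23 in untransfected cells. In mESCs it was 0.76, from 4.34, 4.92 and 4.55 in pT cells, against 3.49, 3.92 and 4.10 in untransfected cells. The difference between the lines was not tested for this comparison. The pT arrays had served in the choice, which favours low pT levels.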

How the results depend on the processing

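Values are the number of the 8 genes called. For p183AT against p183T in mESCs (5), leaving out single arrays gave 4 to 5 and the methods' test after Benjamini-Hochberg 0. In iMOP cells (1) the counts were 0 to 1 without single arrays, 3 in 1 fit of all 30 arrays, 0 with the compared arrays only, 2 with the replicate block (Mfap4 added, adjusted p = 0.00366), 5 with the methods' 1.5-fold test before adjustment and 0 after it. For p183AT against pAT in iMOP cells (0) they were 1 with all 30 arrays, 2 with the methods' fold test and 0 to 1 without single arrays. For p183T against untransfected mESCs (1) they were 0 with all 30 arrays, 2 without dim clusters, 2 with a variance trend, 0 with the methods' test after adjustment and 0 to 2 without single arrays; in iMOP cells (2) they were 3 with the replicate block and 1 to 4 without single arrays. For pT against untransfected mESCs (3) they were 1 with all 30 arrays, 0 with the methods' test after adjustment and 1 to 2 without single arrays, and in iMOP cells (3) 1 with that test and 2 to 3. The difference between lines (1) gave 0 with the compared arrays only and 0 to 1 without single arrays, and the untransfected lines (7) gave 3 without dim clusters and 6 to 7. The sign of p183T minus pT turned for Trp53i11 in mESCs without p183T replicate 1 (0.033; -0.37 to 0.033 over single arrays) and for Abcd2 in iMOP cells without pT replicate 2 (-0.083; -0.083 to 0.92). Over all clusters, p183AT against p183T called 293 in mESCs (326 with all 30 arrays, 95 with the compared arrays only, 0 with the methods' test after adjustment, 189 to 414 without single arrays) and 21 in iMOP cells (42 with all 30 arrays, 5 with the compared arrays only, 151 with the methods' fold test, 0 after adjustment, 6 to 13 without single arrays). The difference between lines called 85 clusters (41 with the compared arrays only, 49 to 133 without single arrays). The 3 hairpin calls of p183AT against pAT and of p183T against pT were 0 with the methods' test after adjustment. Against untransfected cells, p183T called 2846 in mESCs (594 with that test) and 10659 in iMOP cells (6224 without dim clusters), pT called 3330 in mESCs (1115 with that test) and 10466 in iMOP cells (6262 without dim clusters, 4356 with that test), and the untransfected lines differed in 14562 (7525 without dim clusters). The causes were not tested. Quantile normalization and leaving out arrays for pAT and p183AT against pT were added after seeing the data. The 3 arrays a group limit the precision, and the block changed no other count, though in pT against untransfected iMOP cells it called Mfap4 (adjusted p = 0.0167) in place of Khdc1a (0.0521).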
